A study of Mus musculus with 6 samples.

Results

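Cytosolic ribosomal protein genes encode the proteins that, with ribosomal RNA, build the large and the small subunit of the ribosome that translates nuclear-encoded mRNAs. Mitochondria have their own ribosomes and their own set of proteins, which are not among the genes described here. Ribosomal protein mRNAs are abundant in growing tissues, and most begin with a terminal oligopyrimidine (TOP) tract, a C followed by a run of C and T at the cap, through which mTORC1 and the RNA-binding protein LARP1 set how well they are translated. Members were chosen by symbol alone: Rpl, Rps or Rplp followed by a number and at most a short suffix. This rule found 83 of the 23284 listed genes: 43 of the large subunit, 31 of the small subunit, 3 of the stalk that recruits elongation factors (Rplp0, Rplp1, Rplp2) and 6 paralogs (Rpl3l, Rpl7l1, Rpl10l, Rpl22l1, Rpl39l, Rps27l). Of these, 78 had a mean of at least 1 FPKM (reads scaled by transcript length and library total) and were tested. Rpsa, Fau and Rpl36al also encode ribosomal proteins but do not match the symbol rule, and their values are given apart.

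Hearts of C57BL/6 mouse embryos were taken at stage E13.5, and their polyadenylated RNA was sequenced in 2 groups of 3 libraries, each from 5 pooled hearts. In the Tfam KO group both alleles of Tfam, which encodes the factor that packages and transcribes mitochondrial DNA, were floxed (Tfam fl/fl), whereas Control embryos had 1 floxed allele (Tfam fl/+). Both groups carried Nkx2.5 IRES-Cre on 1 allele, so the controls also express Cre, carry 1 floxed Tfam allele and have Cre inserted at the Nkx2-5 locus. This Cre acts in the cardiac lineage and its descendants, and other cells of the heart keep Tfam. The comparison asks how the heart's transcripts differ without intact Tfam in that lineage. In such bulk samples, fewer cells of a type and less RNA per cell cannot be told apart.

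The libraries held 12370092 to 18078620 reads, with 15586 to 16063 genes above 0. Reads on Rn45s, the ribosomal RNA precursor, took 14.95% to 31.2% of the KO libraries and 27.8% to 32.5% of the controls. Because the libraries differed in overall scale, FPKM values were divided by size factors (0.925 to 1.33 in KO hearts, 0.815 to 1.01 in controls), and all levels below are FPKM after this division. After it, the median over the 10807 tested genes was 0.0024 on the log2 scale, against 0.28 as deposited. Tfam was at 3.39, 5.15 and 4.67 in KO hearts and 5.69, 6.40 and 6.58 in controls (log2 fold change -0.43, SE 0.15, limma adjusted p = 0.140). The groups did not overlap, but the test did not call the gene, and exons outside the floxed part are counted too. Heart muscle markers (Tnnt2, Myh6, Myh7, Actc1, Nkx2-5) were abundant in every library, with summed levels of 6053 to 10203 in KO hearts and 8694 to 11097 in controls. Of these 5 genes, 0 were called higher and 1, Nkx2-5, was called lower. Summed erythroid markers ran from 3318 to 10142 in KO hearts and from 6219 to 12903 in controls, with Hba-a1 at 0 everywhere and 0 of 4 tested genes called. Summed liver markers (Alb, Afp, Apoa1) were at 0.0892 to 2.60 in KO hearts and 2.14 to 7.83 in controls. Alb had 3, 44 and 1 reads in KO hearts and 69, 75 and 32 in controls (log2 fold change -1.15, limma adjusted p = 0.142; as deposited 3.13e-05, with limma-voom 0.0331). Summed markers of lung, skeletal muscle and neural cells stayed at or under 0.82. The part of these markers in the ribosomal protein values was not tested.

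The start regions of the genes that the results turn on are shown first, because the TOP tract lies at the transcript's beginning. The windows come from RefSeq (GRCm38.p6) and hold 15 bases before and 15 bases from the annotated start, 5′ to 3′ on the gene's strand. Capitals mark the longest run of a C followed by at least 4 C or T in the window, and a run that reaches the window's end may continue beyond it. The first 3 genes had lower means in Tfam KO hearts. Of these only Rpl27a was called lower, and the groups overlapped in Rplp2 and Rps10. Rps4y2, which was also called lower, had no such window to show. The next 5 were among the genes with the highest fold changes, and none of them was called. Rps6, the classical target of S6 kinase, closes the set as a reference.
Rpl27a: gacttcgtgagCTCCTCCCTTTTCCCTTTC
Rplp2: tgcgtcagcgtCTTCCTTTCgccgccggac
Rps10: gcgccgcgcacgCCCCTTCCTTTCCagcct
Rpl14: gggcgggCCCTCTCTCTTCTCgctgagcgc
Rpl35: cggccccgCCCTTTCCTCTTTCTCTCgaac
Rpl38: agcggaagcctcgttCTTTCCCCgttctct
Rpl22l1: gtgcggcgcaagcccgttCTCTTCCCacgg
Rps4x: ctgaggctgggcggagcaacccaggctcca
Rps6: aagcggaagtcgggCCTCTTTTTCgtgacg

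These windows lie at chr7:109519180-109519209 (plus strand) for Rpl27a, chr7:141447636-141447665 (plus) for Rplp2, chr17:27635230-27635259 (minus) for Rps10 and chr9:120571502-120571531 (plus) for Rpl14. Those of Rpl35, Rpl38 and Rpl22l1 lie at chr2:39005117-39005146 (minus), chr11:114668565-114668594 (plus) and chr3:28805493-28805522 (plus). Rps4x lies at chrX:102189377-102189406 (minus) and Rps6 at chr4:86857353-86857382 (minus). Each window spans the upstream flank and the first exon's first bases. Rpl27a, Rplp2, Rps10, Rpl14, Rpl35, Rpl38 and Rps6 carry a run that holds the annotated start base, which in Rpl38 is the run's first base. In Rpl22l1 the run begins just after the start, and the Rps4x window holds none. Among the windows shown, long pyrimidine runs therefore stood both in genes with lower and in genes with higher values in KO hearts. Of the high genes not shown, Rpl4 (log2 fold change 0.37) had a run in its window. Rpl37 (0.43) and Rpl24 (0.36) had none.

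Of the 83 members, 62 had a promoter entry in RefSeq (250 bases before to 50 after the start). A C followed by at least 4 C or T within 15 bases of the start was found in 42 of them (67.7%), against 40.3% of all 27025 genes with an entry, and 20 (32.3% against 9.41%) had such a run through the start itself. The motif CGGAAG, the core bound by ETS-family factors, was searched on either strand of the 300 bases and stood in 41 members (66.1%, against 18.8% of all genes). Tested members with a run through the start (19) had a median log2 fold change of 0.22, and those without (38) also 0.22. With a run within 15 bases of the start the median was 0.18 (38 members), and without one 0.26 (19 members). With CGGAAG the median was 0.22 (38 members), and without it 0.16 (19 members). These matches describe the letters in the windows and are not measured binding or start sites.

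The members were among the most abundant mRNAs of the heart. Together they made up 9.40%, 8.78% and 8.52% of summed FPKM without Rn45s in KO hearts and 8.16%, 7.43% and 7.63% in controls, so the KO libraries held the 3 highest shares. Over all members the median level in controls was 179 FPKM, and 51 of the 83 lay within 2-fold of it. Rplp1, an acidic stalk protein, had the highest mean control level (863 FPKM), followed by Rps26, which lies at the mRNA exit channel (802), Rpl13 (590), Rpl4 (535) and Rps24 (452). Among these 5, Rplp1, Rps26 and Rpl13 did not differ beyond their spread in controls (SD 246, 98.7 and 57.9). Rpl4 averaged 691 FPKM in KO hearts (control SD 26.1), with all KO libraries above all controls, and Rps24 averaged 555 (control SD 57.0). Neither was called.

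A set of 9 members lay under 10 FPKM, although ribosomes contain most of their proteins in equal number. Rpl26, an exit tunnel protein, and Rpl10l, a copy of Rpl10 known from testis, were listed at 0 in all 6 libraries. Rps27 (1.05 FPKM in controls), Rpl30 (2.58), Rpl34 (4.17) and Rps15a (6.64) were low too, far from the median. Rps15a was low in FPKM but not in reads. It had 544, 469 and 992 reads in KO hearts and 382, 405 and 560 in controls. FPKM divides these by its long gene model of 5134 bases, and the part of model length in its low level was not tested. Many ribosomal protein genes have processed pseudogenes and near copies, and reads that match several places may be dropped or split. In the reference transcripts (GENCODE vM21), a median of 34.0% of a member's 50-base words also occurred in other genes, with a range of 0% to 85.5% over 82 members. This share was 44.0% for Rpl26 and 46.2% for Rps27, whose words are shared with the copy Rps27rt, but 11.0% for Rpl34, 22.5% for Rpl30 and 5.43% for Rps15a. The 9 low members had a median share of 11.0% and the other members one of 35.5%, and the low set includes the paralogs Rpl3l, Rpl10l, Rpl22l1 and Rpl39l. The part of shared sequence in the low values was not tested. How reads with several matches were counted was not given in the sources used here, and the levels of all members carry this uncertainty.

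Tfam KO hearts showed a small upward displacement of most ribosomal protein genes, of which none was called higher. The median log2 fold change of the 78 tested members was 0.21, against 0.0024 for all tested genes, and the quartiles of the members were 0.082 and 0.30. A log2 fold change above 0 was found for 64 members (50.4% of all tested genes were above 0). With limma and Benjamini-Hochberg adjustment over all genes, 0 of 78 members were called higher, where 1.99% of all tested genes were. The 2 members called lower, Rpl27a and Rps4y2, were 2.56% of the tested members, near the 2.6% of all tested genes that were called lower. At an unadjusted p under 0.05, 17 members were higher (8.49% of all genes) and 3 were lower (11.0% of all genes). In 25 members all 3 KO libraries lay above all 3 controls, where 11.8% of all tested genes did so. All 3 KO libraries lay below all controls in 2 members, again Rpl27a and Rps4y2, where 12.2% of all genes did so.

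Scale mattered to this count. On the values as deposited, 19 members were called higher, where 6.21% of all tested genes were, and 0 were called lower (1.16% of all genes). The member median was then 0.54, and that of all genes 0.28. With limma-voom on whole reads recovered from the FPKM values, 1 member, Rps4x, was called higher (2.55% of all genes) and 2, the same pair as above, were called lower (4.27% of all genes). At an unadjusted p under 0.05, limma-voom gave 23 higher members (8.68% of all genes) and 6 lower (12.0%), and the deposited values gave 56 higher (23.3%) and 2 lower (2.53%).

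**Figure D1:**
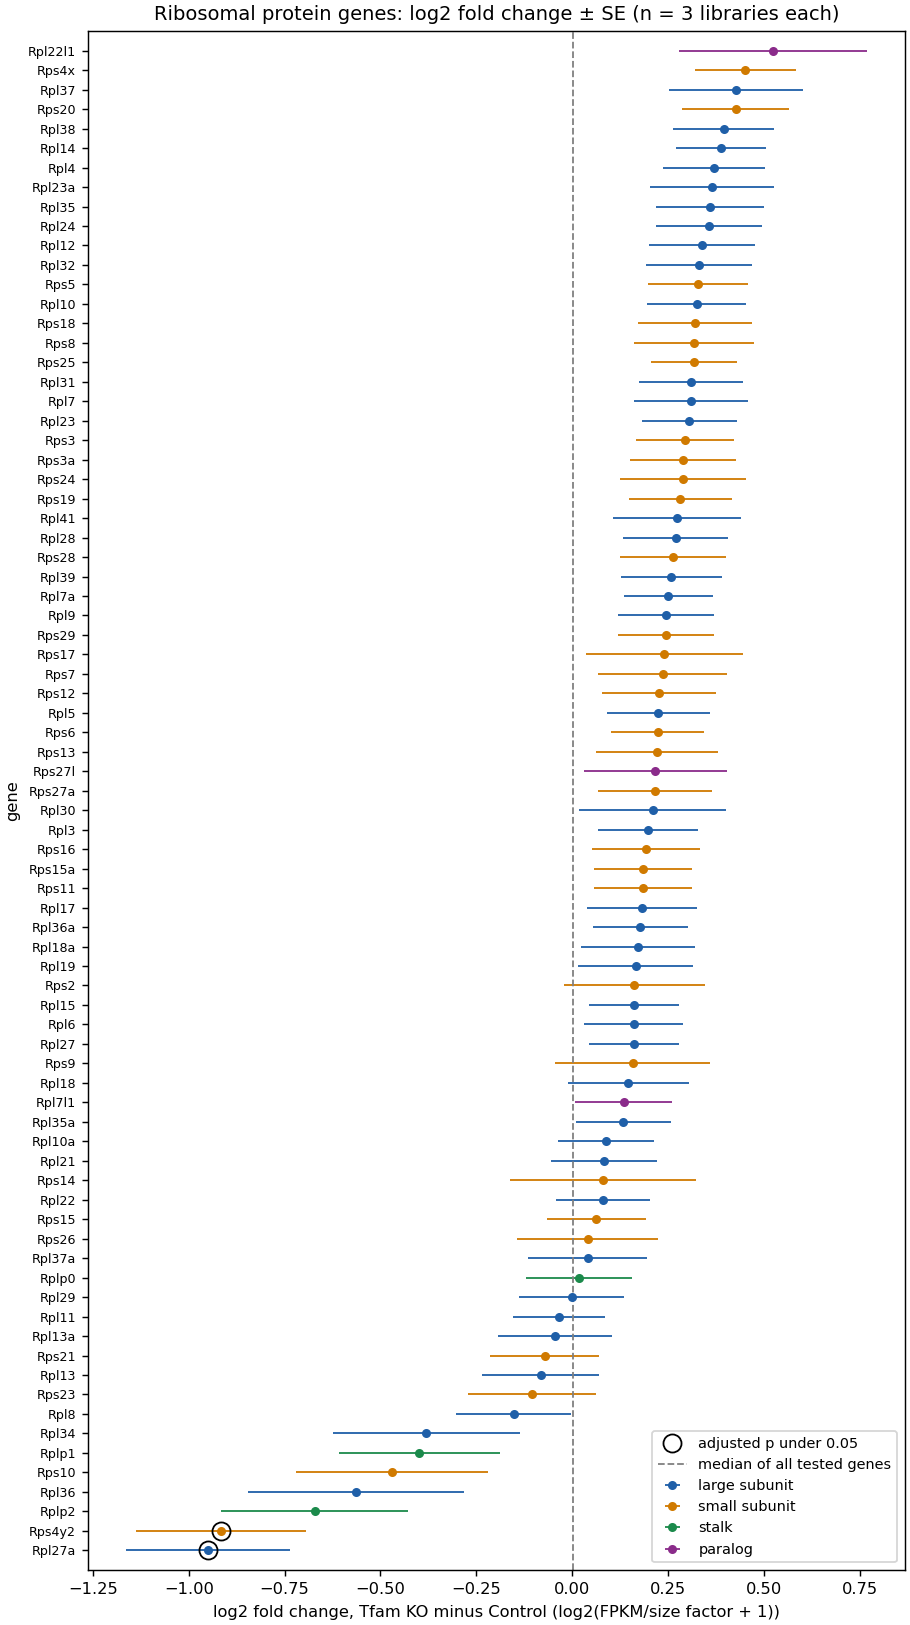
Log2 fold change of the 78 tested ribosomal protein genes, Tfam KO minus Control, on log2(FPKM/size factor + 1), with SE (n = 3 libraries a group), coloured by class; rings mark adjusted p under 0.05 and the dashed line is the median of all tested genes. Most points lie right of the line, between 0 and 0.52, and the ringed Rpl27a and Rps4y2 lie lowest at -0.95 and -0.92.

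The large and the small subunit gave similar medians. The median log2 fold change was 0.19 for the 42 tested large subunit members and 0.22 for the 30 of the small subunit. Library by library, the median deviation of large subunit genes from their own means was 0.14, 0.10 and 0.061 in KO hearts and 0.048, -0.15 and -0.19 in controls. Small subunit genes gave 0.15, 0.15 and 0.053, and 0.020, -0.14 and -0.21. The large minus small difference was -0.018, -0.050 and 0.0080 in KO hearts and 0.028, -0.013 and 0.018 in controls, so the groups overlapped in it. All KO above all Control held for 16 large (38.1%) and 9 small (30%) subunit members, where 11.8% of all tested genes did so. The subunits moved together from library to library, and Control replicate 1 lay close to Tfam KO replicate 3 in both.

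Within the controls, replicates 2 and 3 were low and replicate 1 was not. Control replicate 3 held the lowest value of the 6 libraries in 43 of the 78 members and Control replicate 2 in 19, whereas Control replicate 1 held it in 2. Tfam KO replicates 1, 2 and 3 held the lowest value in 2, 0 and 12 members. The highest value lay in Tfam KO replicates 1, 2 and 3 for 29, 15 and 20 members and in Control replicate 1 for 13. The typical within-group SD of a member (median 0.14 in KO libraries and 0.15 in controls, log2 scale) was close to that of all tested genes (0.17 and 0.15).

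**Figure D2:**
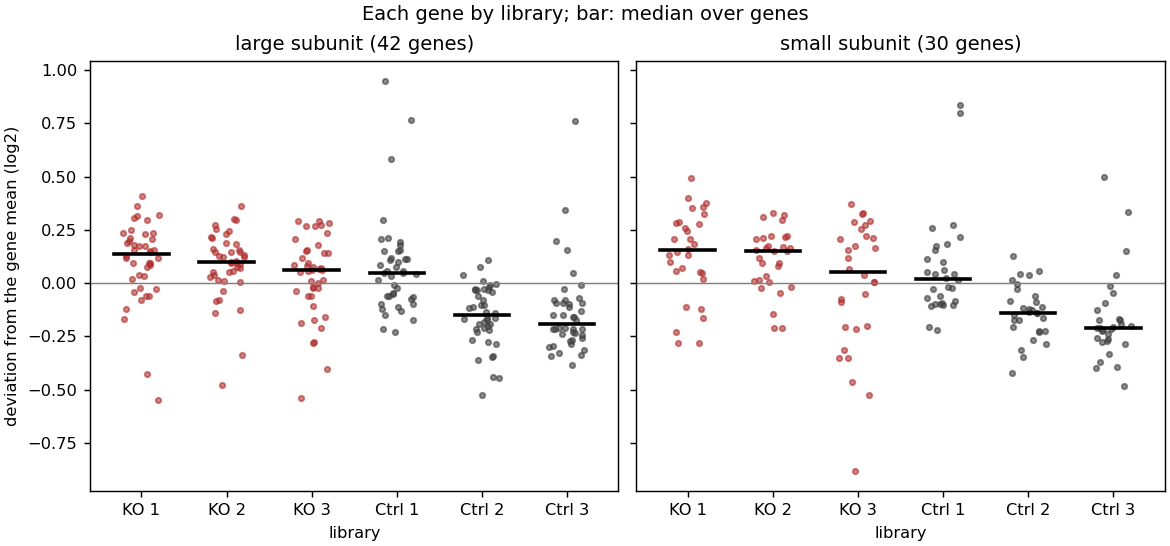
Deviation of each tested gene from its own mean over the 6 libraries (log2), for 42 large and 30 small subunit genes, with the median of each library as a bar. In both panels the medians are highest in Tfam KO replicates 1 and 2, between 0.020 and 0.061 in Tfam KO replicate 3 and Control replicate 1, and lowest in Control replicates 2 and 3.

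Rpl27a, a large subunit protein, showed the lowest fold change of the set. It was at 126, 133 and 140 FPKM in KO hearts and 316, 173 and 314 in controls. The groups did not overlap, the KO libraries were tight and Control replicate 2 was the nearest control. The mean fell from 268 ± 82.2 to 133 ± 6.81 (SD, n = 3 each; log2 fold change -0.95, SE 0.21, limma adjusted p = 0.0330). With limma-voom the adjusted p was 0.00478, and as deposited, where the log2 fold change was -0.61, it was 0.0650.

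Rps4y2, a paralog of the small subunit gene Rps4x that RefSeq lists as Rps4l, is counted with the small subunit by the symbol rule. It was at 19.7, 20.8 and 12.7 FPKM in KO hearts and 43.9, 24.9 and 34.6 in controls. All KO values lay below all control values, with Control replicate 2 again nearest. The mean fell from 34.5 ± 9.51 to 17.7 ± 4.41 (SD, n = 3 each; log2 fold change -0.92, SE 0.22, limma adjusted p = 0.0461). As deposited the adjusted p was 0.0871. Leaving out Control replicate 2 gave 5 lower calls (Rpl27a, Rps4y2, Rplp2, Rpl36, Rps10), where 3.34% of all tested genes were called lower. Leaving out Control replicate 1 or 3 gave 0 (1.4% and 1.18% of all genes), as did leaving out Tfam KO replicate 1, 2 or 3 (2.46%, 1.87% and 1.5%). Its parent Rps4x had the opposite sign, at 331, 340 and 351 FPKM in KO hearts and 270, 258 and 220 in controls (log2 fold change 0.45, SE 0.13, adjusted p = 0.0848). No KO value of Rps4x overlapped a control. The adjusted p of Rps4x was 0.0349 with limma-voom and 0.00854 as deposited. Rps4x shares 72.3% of its 50-base words with other genes. For Rps4y2 this share is not known, because no reference transcript was matched to it.

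Across the 3 stalk genes the median was -0.40 on the log2 scale, with 0 called. Rplp0, the base that carries the acidic proteins, was at 324, 310 and 285 FPKM in KO hearts and 349, 278 and 285 in controls (log2 fold change 0.018). Rplp1 was at 618, 725 and 575 in KO hearts and 1118, 628 and 842 in controls (-0.40, SE 0.21, adjusted p = 0.338). Rplp2, its partner, was at 137, 155 and 111 against 307, 144 and 218 (-0.67, SE 0.24, adjusted p = 0.162). In Rplp1 and Rplp2 the control spread was wide and Control replicate 2 lay among the KO libraries, so the groups overlapped. Rpl12, which binds next to the stalk base, was at 283, 272 and 254 against 248, 188 and 207 (0.34, SE 0.14, adjusted p = 0.215), with no overlap.

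In Rpl36 and Rps10, as in Rplp1 and Rplp2, Control replicates 1 and 3 and Tfam KO replicate 2 held the 3 highest values. Rpl36, of the large subunit, was at 101, 124 and 112 FPKM in KO hearts and 265, 99.9 and 173 in controls (log2 fold change -0.56, SE 0.28, adjusted p = 0.309). Rps10, of the head of the small subunit, was at 154, 162 and 161 against 327, 140 and 237 (-0.47, SE 0.25, adjusted p = 0.346). Fau, outside the symbol rule, whose product is a fusion of a ubiquitin-like protein with the small subunit protein eS30, was at 98.0, 96.3 and 72.7 against 143, 74.1 and 117 (-0.28, SE 0.22, adjusted p = 0.548). In each of these genes Control replicate 1 was highest, Control replicate 3 second and Control replicate 2 no higher than the highest KO library. Whether the wide control values come from the embryos or the libraries was not tested. Also outside the rule, Rpsa had a log2 fold change of -0.11 and Rpl36al of 0.20, and neither was called.

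**Figure D3:**
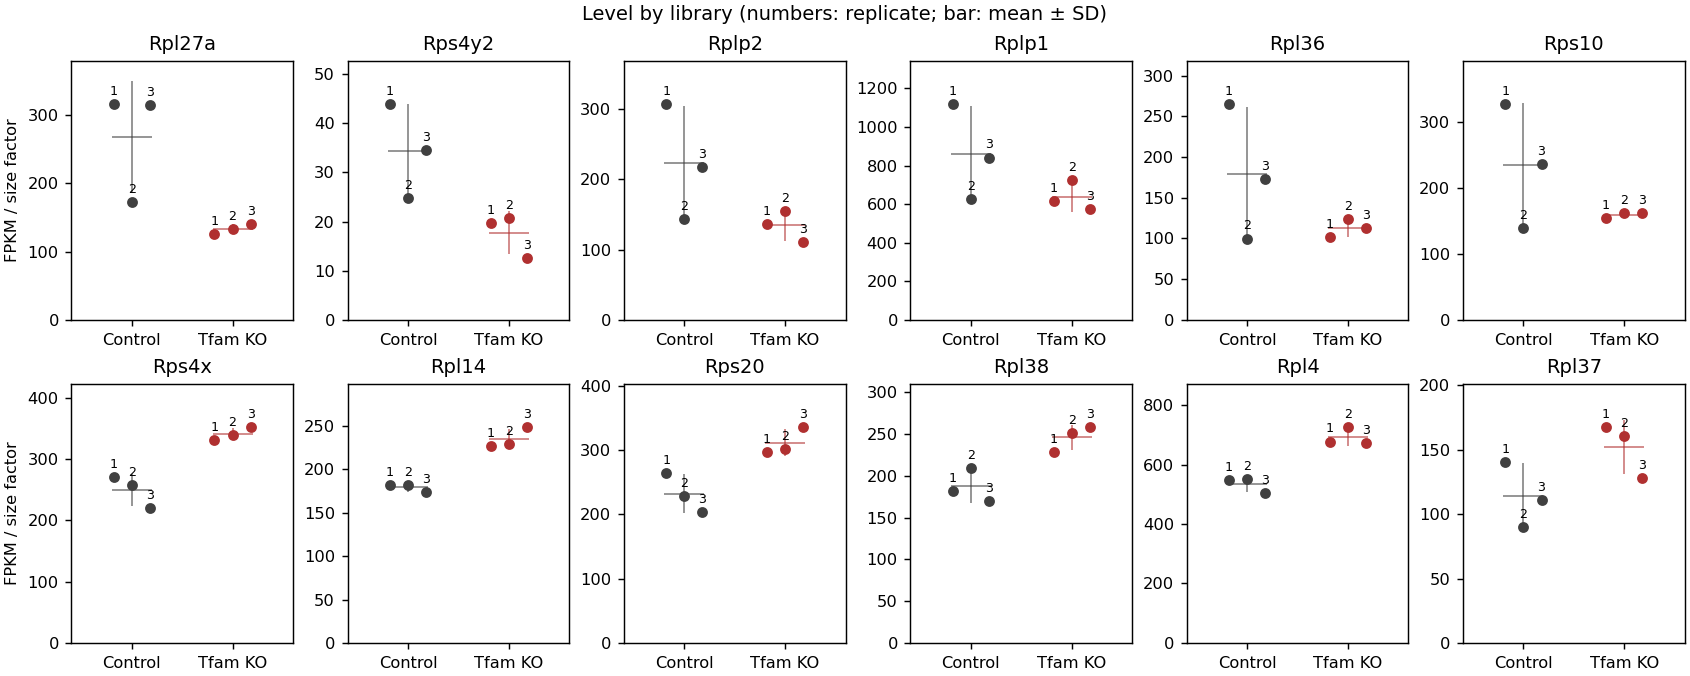
FPKM divided by size factor of 12 named genes in each library, numbered by replicate, with the group mean ± SD (n = 3), on axes from 0. In the upper row Control replicate 1 is the highest library and Control replicate 2 lies at or near the KO values, and in the lower row the KO libraries of Rps4x, Rpl14, Rps20, Rpl38 and Rpl4 all lie above the controls.

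Rps20, Rpl38, Rpl14 and Rpl4 were among the members with the highest fold changes, with groups that did not overlap and an adjusted p above 0.05. Rpl14 was at 228, 229 and 249 FPKM in KO hearts and 182, 182 and 174 in controls (log2 fold change 0.39, SE 0.12, adjusted p = 0.0965). Rps20, of the small subunit head, was at 296, 302 and 335 against 265, 229 and 203 (0.43, SE 0.14, adjusted p = 0.124). Rpl38, known from its mouse mutant with altered skeletal patterning, was at 229, 251 and 258 against 182, 209 and 170 (0.39, SE 0.13, adjusted p = 0.128).

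Rpl4, whose long loop lines the exit tunnel, was at 677, 725 and 671 FPKM in KO hearts and 549, 551 and 505 in controls (log2 fold change 0.37, SE 0.13, adjusted p = 0.160). In Rpl37 the KO values of 168, 161 and 128 overlapped the control values of 141, 90.3 and 111 (0.43, adjusted p = 0.215). Rpl35, at the tunnel exit, and Rpl24, which joins the large subunit late in its assembly, had log2 fold changes of 0.36 each without overlap, and Rpl23a one of 0.37 with overlap. None of these genes was called.

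The exit tunnel list (Rpl17, Rpl19, Rpl23a, Rpl26, Rpl31, Rpl35, Rpl39) had 6 of 7 genes tested, with a median log2 fold change of 0.28. Of these 0 were called, where 1.99% of all tested genes were called higher and 2.6% lower. In 2 of them, Rpl35 and Rpl39, all KO libraries lay above all controls, where 11.8% of all tested genes did so. Rpl39, a very small protein of the tunnel wall, was at 423, 388 and 359 FPKM in KO hearts and 329, 341 and 306 in controls (0.26, adjusted p = 0.317). The mRNA channel list (Rps2, Rps3, Rps26, Rps28) had 0 of 4 genes called and a median of 0.21. The head and beak list (Rps10, Rps12, Rps15, Rps19) had 0 of 4 called and a median of 0.14. Rps19, the first gene found mutated in Diamond-Blackfan anemia, was at 56.2, 41.8 and 43.5 FPKM against 39.6, 36.6 and 38.7 (0.28, SE 0.13, adjusted p = 0.285), and its groups did not overlap.

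Rpl5 and Rpl11 carry the 5S ribosomal RNA and, when free, bind the p53 regulator MDM2. Rpl5 was at 365, 404 and 436 FPKM in KO hearts and 319, 363 and 348 in controls (log2 fold change 0.22, SE 0.13, adjusted p = 0.408). Rpl11 was at 117, 114 and 126 against 125, 130 and 111 (-0.035, SE 0.12, adjusted p = 0.910). The KO values of Rpl5 lay just above the controls and those of Rpl11 were interleaved with them. Rps6 was at 245, 251 and 275 FPKM against 221, 228 and 211 (0.22, SE 0.12, adjusted p = 0.360), without overlap. The other members with values below 0 were close to 0 or low in reads: Rpl34 had a log2 fold change of -0.38 at 2.04 to 5.62 FPKM, Rpl8 of -0.15, Rps23 of -0.11 and Rpl13 of -0.083, none of them called.

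**Figure D4:**
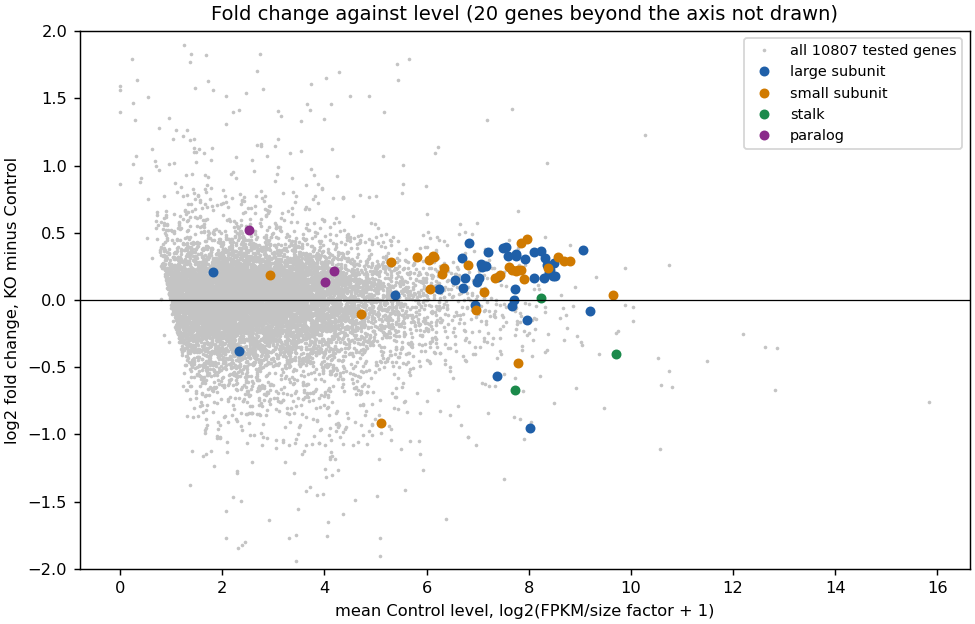
Log2 fold change (Tfam KO minus Control) against the mean Control level, both on log2(FPKM/size factor + 1), for all 10807 tested genes in grey and the tested ribosomal protein genes by class; 20 genes beyond ±2 are not drawn. The members gather at high levels above 0. Those below it include Rpl27a, Rps4y2, Rplp2, Rplp1, Rpl36 and Rps10, and Rpl34 at a low level.

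Paralogs can replace a parent protein in the ribosome of some tissues, and ratios to the parent within a library need no scaling. Rpl3l, known from heart and skeletal muscle after birth, was listed at 0 in Tfam KO replicate 1 and had at most 5 reads in any library (0, 3 and 4 in KO hearts, 4, 1 and 5 in controls), while its parent Rpl3 was at 386 ± 31.3 FPKM in KO hearts and 336 ± 16.5 in controls (log2 fold change 0.20). Rpl39l had 2, 0 and 13 reads in KO hearts and 1, 0 and 1 in controls, too few for a comparison. Rpl10 was at 269 ± 4.43 FPKM in KO hearts and 216 ± 23.7 in controls (0.32), and its copy Rpl10l was listed at 0.

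Rpl22l1, a paralog of the RNA-binding protein Rpl22, had the highest fold change of all members. It was at 5.72, 6.73 and 9.90 FPKM in KO hearts and 4.25, 3.32 and 7.37 in controls, from 40, 41 and 105 reads against 23, 17 and 64 (log2 fold change 0.52, SE 0.25, adjusted p = 0.278). Replicate 3 was the highest in each group and the groups overlapped. As a share of Rpl22 it stood at 7.54%, 8.17% and 12.3% in KO hearts and 5.13%, 4.31% and 11.1% in controls (log2 ratio difference 0.54). Rpl22 itself had a log2 fold change of 0.081.

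Rpl7l1, a homologue of Rpl7 found in ribosome precursors, was 4.19%, 4.75% and 3.85% of Rpl7 in KO hearts and 4.36%, 5.41% and 4.60% in controls (log2 ratio difference -0.17). Rps27l, known as a p53-responsive paralog, was at 17.8, 22.4 and 20.9 FPKM in KO hearts and 22.02, 18.7 and 12.6 in controls (log2 fold change 0.22, adjusted p = 0.585). Its parent Rps27 had only 9, 1 and 3 reads in KO hearts and 6, 5 and 15 in controls, so their ratio (log2 difference 1.89) rests on counting error. Over these 3 pairs the exact permutation test over 6 libraries (two-sided) gave p = 0.3 for each, also after adjustment over the pairs, and 3 against 3 cannot give less than 0.1.

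Other genes with TOP mRNAs, outside the symbol rule and not all of translation, were listed for comparison. Of 17 such genes, 1 was called higher (1.99% of all tested genes) and 0 lower (2.6% of all genes). At an unadjusted p under 0.05, 4 were higher (8.49% of all genes) and 0 lower (11.0%), and the median log2 fold change was 0.24. The called gene, Btf3, the beta subunit of the nascent polypeptide-associated complex, was at 159, 147 and 149 FPKM in KO hearts and 103, 101 and 115 in controls (0.50, SE 0.12, adjusted p = 0.0380), and is named after its values were seen. Of the 11 regulators of TOP mRNAs, 0 were called in either direction (1.99% of all tested genes were called higher and 2.6% lower), with a median of 0.047. All KO libraries lay above all controls in 1 of them (11.8% of all genes) and below all controls in 2 (12.2%). Larp1, which binds the TOP cap, was at 23.2, 25.3 and 22.5 against 19.6, 18.05 and 19.1 (0.31, SE 0.11, adjusted p = 0.156). Eif4ebp2 went the other way, at 14.7, 15.3 and 14.2 against 21.2, 16.7 and 17.1 (-0.29, SE 0.12, limma adjusted p = 0.228). Of the 4 dedicated chaperones of ribosomal proteins (Grwd1, Heatr3, Bccip, Tsr2), 0 were called, with a median of 0.21.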

How the data were processed

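Per the labels' protocols, RNA was extracted from flash-frozen pools of separate embryos' hearts with a spin-column kit, followed by oligo(dT) selection. Per the submitters' processing notes, tools were CASAVA (1.8.2), HTSeq (0.5.3) and TopHat2 (2.0.7), and the build was mm9, without their roles. The strand setting, the annotation and the FPKM formula are not given in the sources used here. The authors deposited 1 value per gene and library on the scale log2(FPKM + 1). The base was read from the steps of low values: 11.1% to 13.8% of ratios fell on the commonest step with base 2 and at most 0.158% with other bases.

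Levels were divided by median-of-ratios size factors. Genes averaging 1 FPKM or more entered limma 3.58.1 (R 4.3.3), fitted on log2(FPKM/size factor + 1), with group as the only term, a variance trend, two-sided tests and Benjamini-Hochberg adjustment over all 10807 genes (threshold 0.05). This scale understates the change of low genes. All 17876 genes above 0 gave whole reads in all 6 libraries (tolerance 1e-05 of a read, widened with the read count), each gene up to a whole-number factor shared by the libraries. On simulated data for 10807 genes of Tfam KO against Control, 92% of 2-fold and 100% of 4-fold changes were called, and 24 of 10607 unchanged genes. The changed genes were drawn only from genes with many reads, and every gene was given the same variability between libraries. These shares therefore do not carry over to low genes or to genes with widely spread controls. Same-numbered libraries were checked for pairing. Named were the called members, the 10 highest and 10 lowest fold changes, the paralog pairs, the stalk with Rpl12, Rpl5, Rpl11, Rps6, Rps19, the 5 most abundant, those at 0, and Rpsa, Fau and Rpl36al. A further gene of the rule is not reported here. The members and lists were chosen with earlier results of these data known.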

Additional observations from a re-analysis of the deposited data

How the results depend on the processing

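Beside the size factors, the fit was repeated on the values as deposited, with upper-quartile, quantile and cyclic loess scaling, size factors without ribosomal protein genes, a pseudocount of 0.1, no filter, a minimum of 5 FPKM, no variance trend, a replicate block, limma-voom on recovered reads, the transcript length trend removed, and without each library. The count of members called higher moved from 0 to 19 as deposited and to 1, Rps4x, with limma-voom and with the length trend removed. The count called lower moved from 2 to 0 as deposited and without the filter, to 1 with cyclic loess, with a pseudocount of 0.1 and without the variance trend, and lay between 0 and 5 when a library was left out. The member median moved to 0.54 as deposited and lay between 0.16 and 0.26 without a library. The difference of large and small subunit medians, -0.035, lay between -0.032 and -0.0028 without a library. Over all tested genes, 215 were called higher and 281 lower (43.3% of calls higher). As deposited these were 671 and 125 (84.3%), without the filter 164 and 144, and with limma-voom 276 and 461. The higher share was 54.5% without Tfam KO replicate 3.

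Of the 39 named genes tested, 29 kept their direction in every setting. As deposited the sign turned for Rpl8 (0.19), Rps23 (0.22), Rpl13 (0.26), Rpl11 (0.30), Rpsa (0.23) and Fau (0.051). With quantile scaling it turned for Rplp0 (-0.071) and Rpl11 (0.024), and with the length trend removed for Rpl11 (0.030). Leaving out 1 library gave ranges across 0 for Rplp0 (-0.043 to 0.12), Rps26 (-0.079 to 0.21), Rps23 (-0.22 to 0.10), Rpl13 (-0.18 to 0.0025), Rpl11 (-0.10 to 0.011), Rpl22 (-0.0073 to 0.15), Rps27l (-0.00035 to 0.38) and Rpsa (-0.23 to 0.015). Causes were not tested.

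Same-numbered KO and Control libraries deviated together with r of 0.36, 0.068 and 0.16, and Tfam KO replicate 3 correlated better with Control replicate 2 (0.25), so the numbers were not taken as pairs. With the replicate block, 0 members were called higher and 2 lower, and over all genes 278 and 421. Reads limit Rps27, Rpl3l and Rpl39l, and 3 libraries a group limit all small differences.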
